A study of Mus musculus with 4 samples.

Results

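Fibroblast growth factors (FGFs) and their receptors were followed across the cells of the mouse mammary gland through 7 of the 28693 genes counted: the ligands *Fgf1*, *Fgf2*, *Fgf7* and *Fgf10*, and the receptors *Fgfr1*, *Fgfr2* and *Fgfr3*. The genes were taken by symbol, and each symbol named a single row. Counts of unique molecular identifiers (UMIs, 1 per captured RNA molecule) were summed for each lineage and library, so that the cells that make a ligand and those that carry its receptors can be set side by side. The 7 genes together spanned a wide range of depth, from 89 UMIs of *Fgf10* and 177 of *Fgf7* in the kept cells to 9747 of *Fgfr2* and 22539 of *Fgfr1*, with 264 of *Fgf2*, 1789 of *Fgfr3* and 2257 of *Fgf1* between them.

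FGFs are secreted ligands that bind receptor tyrosine kinases together with heparan sulfate chains on the cell surface. In the mammary gland the pathway is best known as a conversation between stroma and epithelium: FGF7 and FGF10 are made by mesenchymal cells and act on the epithelial splice form of FGFR2, and the pair FGF10 and FGFR2 is needed for the mammary bud to form and for ducts to branch. FGF1 can bind all the FGF receptors, FGF2 prefers the mesenchymal splice forms, and both lack a classical signal peptide. Signal from the receptor passes through FRS2 and RAS to ERK, raises the transcription factors ETV4 and ETV5, and is damped by Sprouty proteins and by the phosphatase DUSP6.

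Droplet-based 3' libraries of live mammary cells came from 4 mice, adult and nulliparous by the study's methods, 1 library each, with 2 mice in each group. Both groups carried floxed *Lats1* and *Lats2* (Lats1f/f;Lats2f/f), the kinases of the Hippo pathway that hold back YAP and TAZ, and an EYFP reporter at R26 behind a floxed stop (R26-lsl-EYFP). The 2 CTL mice, labelled WT, were heterozygous for the reporter and list no Cre. The LATS1/2-KO mice carried Krt8-CreERT2 as well, with the reporter heterozygous in replicate 1 and homozygous in replicate 2. All mice received 5 doses of 2 mg tamoxifen and were collected 7 days after the last. The *Krt8* promoter, a luminal keratin promoter, drives the Cre, whose reach was mosaic by the reporter. The 3' counts do not separate the splice forms of the receptors.

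Filters of over 500 genes and under 20% mitochondrial UMIs kept 18200 cells, from 3515 to 5272 a library, with 38792520 to 46810771 UMIs a library and median depths of 5962.5 to 10141 UMIs a cell. Of 18157 distinct barcodes, 43 occurred in more than 1 library. *EYFP* was seen in 14 and 18 CTL cells against 747 (16.6%) and 921 (17.5%) LATS1/2-KO cells, and in luminal ER- cells it marked 22.4% and 27.4% of the LATS1/2-KO cells. *Lats1* stood at 25.3 to 25.6 CPM (UMIs of a gene per 1000000 UMIs of the class, the unit of every level given here) in luminal ER- cells of CTL and 13.3 to 15.3 of LATS1/2-KO, and *Lats2* at 15.0 to 16.8 and 27.2 to 29.3. A 3' tag can lie outside the deleted part, so neither level checks the deletion. Cells were clustered with all FGF genes left out, and clusters took their lineage from marker genes: luminal ER- (alveolar-type, with *Kit* and *Elf5* among the markers), luminal ER+ (hormone-sensing, *Esr1* and *Pgr*), basal (*Krt5*, *Trp63*), iCAF-like and myCAF-like fibroblasts (inflammatory and myofibroblastic cancer-associated fibroblast markers), perivascular PVL-like cells, endothelium, macrophages and lymphocytes. Different clusters held most of each epithelial class in the 2 groups. Luminal ER- cells of CTL lay in the clusters led by *Cck* and *Ltf* and those of LATS1/2-KO in the clusters led by *Wfdc3* and *Ube2c*. Basal cells of CTL lay in the cluster led by *1500015O10Rik* and *Cnn1* and those of LATS1/2-KO in the cluster led by *Krt5* and *Gpx2*. Luminal ER+ cells of CTL lay mostly in the cluster led by *Fxyd2*. Another 685 and 285 LATS1/2-KO cells lay in epithelial clusters, led by *Ptgs2* (median 12.4% mitochondrial UMIs) and *Crct1*, that took no lineage.

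By the mm10 (GRCm38) gene models of GENCODE M21, the protein-coding genes *Fgf2* (chr3:37348346-37410108, plus strand), *Fgf7* (chr2:126034658-126091185, plus), *Fgf10* (chr13:118669791-118792115, plus), *Fgfr1* (chr8:25513654-25575718, plus), *Fgfr2* (chr7:130162451-133123350, minus) and *Fgfr3* (chr5:33721674-33737068, plus) lie on 6 different chromosomes. The 250 bases before the RefSeq start (GRCm38.p6) are shown for the stromal ligands *Fgf7* and *Fgf10*, which were found in the same fibroblast class, and for *Fgfr2*, the receptor they are known to act through. The *Fgf7* window ends at the base before the GENCODE gene, while those of *Fgf10* and *Fgfr2* lie inside the longer GENCODE spans of their genes. They are *Fgf7* at chr2:126034408-126034657, plus strand, with 43.6% G and C, *Fgf10* at chr13:118714449-118714698, plus strand, 61.2%, and *Fgfr2* at chr7:130266809-130267058, minus strand, 44.0%, each printed 5′ to 3′ along its own strand.
Fgf7: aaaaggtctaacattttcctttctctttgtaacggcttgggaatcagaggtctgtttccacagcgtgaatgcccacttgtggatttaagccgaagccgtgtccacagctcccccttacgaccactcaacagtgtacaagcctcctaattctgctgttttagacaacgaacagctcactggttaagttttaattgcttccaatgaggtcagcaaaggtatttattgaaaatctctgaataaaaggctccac
Fgf10: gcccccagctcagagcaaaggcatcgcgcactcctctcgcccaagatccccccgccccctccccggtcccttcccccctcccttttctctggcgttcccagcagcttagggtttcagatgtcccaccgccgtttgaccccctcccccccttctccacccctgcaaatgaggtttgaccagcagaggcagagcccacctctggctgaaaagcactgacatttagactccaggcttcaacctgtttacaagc
Fgfr2: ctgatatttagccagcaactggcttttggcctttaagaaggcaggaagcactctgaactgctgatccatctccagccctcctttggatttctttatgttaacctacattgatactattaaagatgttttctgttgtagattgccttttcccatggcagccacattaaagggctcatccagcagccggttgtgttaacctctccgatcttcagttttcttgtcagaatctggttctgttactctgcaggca
Capitals were kept for the TEAD motif GGAATG, the site through which YAP and TAZ act, on either strand, and none of the 3 windows holds it. Of 32851 mouse promoter windows of the same length, 12.64% hold it. The AP-1 motif TGANTCA, searched on both strands, was absent from the 3 windows as well and occurs in 6.75% of all windows. A window without these letters says nothing of binding elsewhere.

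The ligand *Fgf1* was an epithelial and perivascular RNA. In CTL its levels in CPM were 81.2 and 104.9 in basal cells, 21.4 and 24.9 in luminal ER- cells and 15.8 and 21.8 in luminal ER+ cells. In LATS1/2-KO they were 8.25 and 9.79 in basal, 2.31 and 2.32 in luminal ER- and 6.98 and 5.82 in luminal ER+ cells. Every LATS1/2-KO library lay below every CTL library in each of the 3 epithelial classes, with no overlap.

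The fall of *Fgf1* passed the test in all 3 classes (edgeR quasi-likelihood test on class sums, Benjamini-Hochberg adjustment over all genes, n = 2 against 2 mice). The log2 fold change was -3.65 ± 0.15 (SE) in luminal ER- cells (adjusted p = 6.25e-06), -3.46 ± 0.25 in basal cells (adjusted p = 3.06e-08) and -1.51 ± 0.26 in luminal ER+ cells (adjusted p = 0.0093). The fitted changes use TMM-scaled totals, and so differ from plain ratios of the levels. The fall was larger in luminal ER- than in luminal ER+ cells, by -2.18 ± 0.38 on the log2 scale (interaction adjusted p = 8.93e-05), and its difference from that in basal clusters did not pass (-0.34 ± 0.35, adjusted p = 0.57). With both classes taken from the gate described below, the fall was smaller in luminal ER- than in basal cells, by 2.24 (adjusted p = 3.8e-05). Without LATS1/2-KO replicate 1 the luminal ER+ call was lost (adjusted p = 0.0619); the other LATS1/2-KO library holds 144 luminal ER+ cells and 9 *Fgf1* UMIs.

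Within luminal ER- cells *Fgf1* also differed between clusters of the same condition. In CTL it stood at 26.6 and 32.3 in the cluster led by *Cck* and at 8.13 and 8.68 in that led by *Ltf*. In LATS1/2-KO it stood at 3.87 and 3.64 in the cluster led by *Wfdc3* and at 1.63 and 1.42 in that led by *Ube2c*, a gene of dividing cells. Both LATS1/2-KO clusters lay below both CTL clusters. These clusters were made after the condition acted, so the values are descriptions.

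Outside the epithelium *Fgf1* stood out in PVL-like cells, the pericytes and smooth muscle cells around vessels. Their levels were 46.5 and 48.9 in LATS1/2-KO, from 13 and 15 UMIs, and 103 and 226 in the 17 and 8 cells of CTL, from 7 and 13 UMIs. With fewer than 20 CTL cells a library, the conditions were not tested against each other in this class. iCAF-like and myCAF-like fibroblasts of LATS1/2-KO held 1.42 to 6.30. Within LATS1/2-KO, *Fgf1* was higher in PVL-like than in iCAF-like cells by 3.63 ± 0.50 on the log2 scale (edgeR with the mouse as block, adjusted p = 5.51e-12). Against myCAF-like cells it was higher by 3.96 ± 0.57 (adjusted p = 3.73e-08). *Fgf1* entered both tests only through its PVL-like sums, the class where it is high. Both calls were lost when cells were classed by the gate on single cells described below (0.81, adjusted p = 0.273, and 0.92, adjusted p = 0.204), which moved 218 LATS1/2-KO cells of luminal ER- clusters into the PVL-like class. By levels, the order of *Fgf1* in LATS1/2-KO was PVL-like, basal, then luminal ER+, whose range overlapped that of iCAF-like cells, and luminal ER-, inside the range of the fibroblasts. In CTL, PVL-like and basal cells overlapped at the top, and luminal ER- and luminal ER+ cells overlapped below them.

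**Figure D1:**
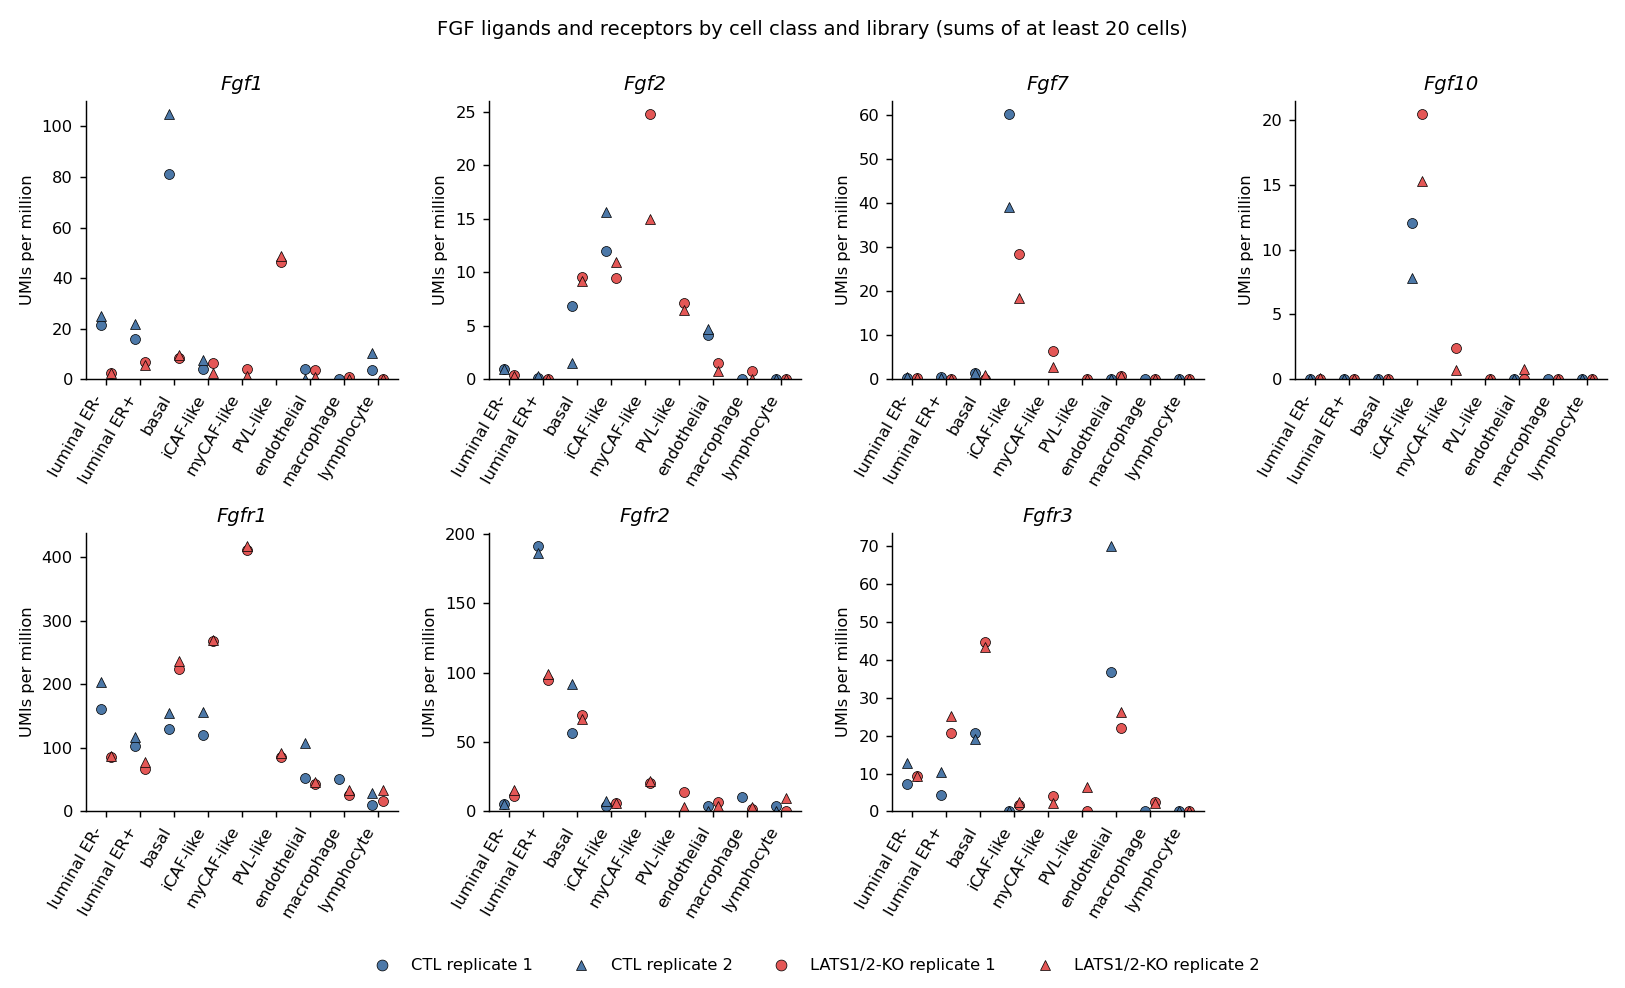
Levels of the 7 FGF genes in CPM (y axis) by cell class (x axis), 1 point for each library whose class holds at least 20 cells, blue for CTL and red for LATS1/2-KO, circles for replicate 1 and triangles for replicate 2. Adipocytes are not drawn. *Fgf7* and *Fgf10* are near 0 in the classes drawn other than iCAF-like and myCAF-like fibroblasts. *Fgf1* is high in basal cells of CTL (81.2 and 104.9) and low in those of LATS1/2-KO (8.25 and 9.79). *Fgfr2* is highest in luminal ER+ cells (186 to 191 in CTL).

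*Fgf2* was sparse. It was highest in the 25 adipocytes of LATS1/2-KO replicate 2, at 67.3 from 19 UMIs, a class with no second library. In myCAF-like cells of LATS1/2-KO it stood at 24.8 and 14.9, and in iCAF-like cells at 12.0 and 15.6 in CTL, from 3 and 2 UMIs, and at 9.44 and 10.97 in LATS1/2-KO. The myCAF-like to iCAF-like difference did not pass the test (log2 0.77 ± 0.37, adjusted p = 0.106). Basal cells held 6.88 and 1.48 in CTL, from 5 and 1 UMIs, and 9.55 and 9.14 in LATS1/2-KO, a difference of 0.99 ± 0.59 that did not pass (adjusted p = 0.21).

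In luminal ER- cells *Fgf2* was near the limit of these counts, at 0.921 and 0.923 in CTL and 0.420 and 0.331 in LATS1/2-KO, from 24, 20, 10 and 9 UMIs. Both LATS1/2-KO libraries lay below both CTL libraries. The fall of 1.63 ± 0.37 on the log2 scale passed (edgeR adjusted p = 0.0067) and was lost under DESeq2 (adjusted p = 0.0576), under the gate (adjusted p = 0.125) and without CTL replicate 1 (adjusted p = 0.0587). In luminal ER+ cells 3 and 6 UMIs were found in CTL and 0 in both LATS1/2-KO libraries, which allows up to 0.675 and 1.94 CPM.

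*Fgf7* and *Fgf10*, the mesenchymal ligands of epithelial FGFR2, were found in fibroblasts and were close to absent elsewhere. *Fgf7* in iCAF-like cells stood at 60.1 and 39.0 in CTL, from 15 and 5 UMIs, and at 28.3 and 18.4 in LATS1/2-KO, from 18 and 72 UMIs. Both LATS1/2-KO libraries lay below both CTL libraries. *Fgf10* in the same cells stood at 12.0 and 7.81 in CTL, from 3 and 1 UMIs, and at 20.5 and 15.3 in LATS1/2-KO, from 13 and 60 UMIs, too few in CTL to be tested. Both LATS1/2-KO libraries lay above CTL, on 4 CTL UMIs in all.

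In all other classes *Fgf7* stayed at or under 1.48 CPM, apart from 6.39 and 2.84 in myCAF-like cells of LATS1/2-KO. The 25 adipocytes held 2 UMIs of *Fgf10*. It was not seen in basal, luminal ER+ or PVL-like cells of any library, and luminal ER- cells held 3 UMIs of it in all. A count of 0 allows up to 0.154 to 1.94 CPM in luminal ER+ cells, 0.979 to 4.43 in basal cells and 9.77 to 10.7 in PVL-like cells of LATS1/2-KO. Against the mean of the 3 epithelial classes, *Fgf7* was higher in fibroblasts (all iCAF-like and myCAF-like cells) by 6.43 ± 0.47 on the log2 scale (edgeR over all class sums, adjusted p = 4.77e-11), and *Fgf2* by 4.41 ± 0.69 (adjusted p = 1.08e-05). *Fgf10* passed too (adjusted p = 2.36e-06), on epithelial counts too low for a fold. All 7 FGF genes differed in this comparison, where 39.2% of all genes did (18.8% higher and 20.4% lower). Of them 4 were higher in fibroblasts (*Fgf2*, *Fgf7*, *Fgf10* and *Fgfr1*) and 3 lower (*Fgf1*, *Fgfr2* and *Fgfr3*). *Fgf7* and *Fgf10* passed the low-count filter only through fibroblast sums, so their direction was set in advance. The count of 7 thus says little about the FGF genes as a list.

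Among fibroblasts of LATS1/2-KO, both mesenchymal ligands were lower in myCAF-like than in iCAF-like cells. *Fgf7* stood at 6.39 and 2.84 against 28.3 and 18.4, a log2 difference of -2.35 ± 0.45 (edgeR with the mouse as block, adjusted p = 2.06e-06). *Fgf10* stood at 2.40 and 0.711 against 20.5 and 15.3, a difference of -3.52 ± 0.61 (adjusted p = 9.18e-08). The subtypes did not overlap for either ligand. Of the 2 myCAF-like clusters, the one led by *Col5a1*, with a median of 13.0% mitochondrial UMIs, held no UMI of either ligand in 223 cells, which allows up to 9.08 and 7.37 CPM in LATS1/2-KO replicates 1 and 2. The one led by *Mfap5* held 8.68 and 4.001 of *Fgf7* and 3.26 and 1.0 of *Fgf10*. Of the 5 FGF genes tested between the subtypes, 4 differed, 2 higher and 2 lower in myCAF-like cells, against 28.9% of all genes (15.2% higher and 13.7% lower). *Fgf7* and *Fgf10* passed the low-count filter only through iCAF-like sums, and *Fgfr2* only through myCAF-like sums. The count thus says little about the FGF genes as a list.

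*Fgf7* and *Fgf10* were seldom seen in the same cell at this depth. Among iCAF-like cells, 20.3% (exact 95% interval 10.98 to 32.8%) and 11.1% (2.35 to 29.2%) of CTL cells and 10.3% (5.61 to 17.0%) and 8.61% (6.70 to 10.9%) of LATS1/2-KO cells held a UMI of *Fgf7*. For *Fgf10* the shares were 5.08% and 3.70% in CTL and 8.73% and 6.999% in LATS1/2-KO. These intervals cover counting error only. Cells with both numbered 1 of 59, 0 of 27, 2 of 126 and 6 of 743, in the order CTL replicates 1 and 2 and LATS1/2-KO replicates 1 and 2. Lymphocytes, which should lack both ligands, held no UMI of either in 402 cells, at median depths of 1554 to 3141 UMIs against 3869 to 4769 in iCAF-like cells.

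Over all fibroblasts, *Fgf7* fell in LATS1/2-KO, from 53.6 and 39.0 to 13.8 and 14.3 (log2 fold change -1.68 ± 0.42, adjusted p = 0.0416). That call was lost without any one of the 4 libraries (adjusted p 0.124 to 0.467) and under DESeq2 (adjusted p = 0.0759). The fibroblasts of LATS1/2-KO held 190 and 226 myCAF-like cells, which carry little *Fgf7*, against 3 and 0 in CTL. Within iCAF-like cells alone the change was -1.23 ± 0.42 and did not pass (adjusted p = 0.079). *Fgf10* over all fibroblasts, at 14.3 and 7.81 in CTL and 8.48 and 11.5 in LATS1/2-KO, overlapped between the groups (-0.14 ± 0.67, adjusted p = 0.97). In fibroblasts 2 of 5 FGF genes tested passed, against 6.0% of all genes (2.75% higher and 3.24% lower), and in iCAF-like cells 1 of 2, against 13.5% (5.77% higher and 7.77% lower).

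**Figure D2:**
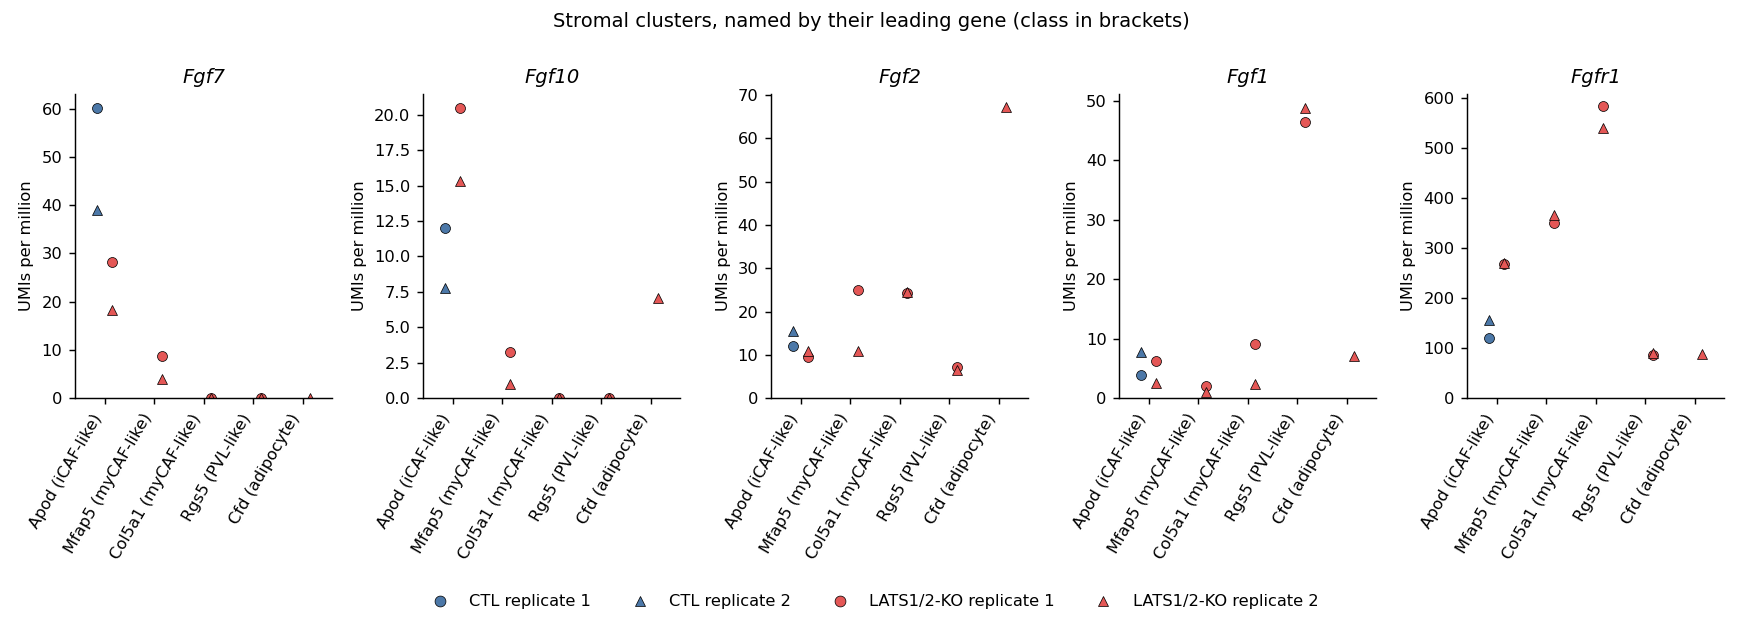
Levels of *Fgf7*, *Fgf10*, *Fgf2*, *Fgf1* and *Fgfr1* in CPM (y axis) in the stromal clusters, named by their leading gene with the class in brackets (x axis), 1 point for each library of at least 20 cells, colours for the groups and shapes for the replicates. *Fgf7* and *Fgf10* are highest in the iCAF-like cluster, *Fgf1* in the PVL-like cluster (46.5 and 48.9) and *Fgfr1* in the myCAF-like cluster led by *Col5a1* (584 and 541).

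Among the receptors, *Fgfr1*, whose mesenchymal form binds FGF1 and FGF2, had the most UMIs. Its highest levels were in myCAF-like cells of LATS1/2-KO, at 411 and 417, followed by iCAF-like cells of LATS1/2-KO at 268 and 270.0. In CTL the iCAF-like cells held 120.2 and 156. Both LATS1/2-KO libraries lay above both CTL libraries. *Fgfr1* rose in iCAF-like cells by 1.08 ± 0.25 on the log2 scale (edgeR adjusted p = 0.0165) and over all fibroblasts, from 118 and 156 to 363 and 309, by 1.42 ± 0.29 (adjusted p = 0.0165). The iCAF-like call was lost without CTL replicate 1 (adjusted p = 0.101) and on sums thinned to the smallest library (adjusted p = 0.13), and the fibroblast call without either CTL library (adjusted p = 0.257 and 0.122). The CTL iCAF-like sums rested on 30 and 20 UMIs of *Fgfr1* in 59 and 27 cells.

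Within LATS1/2-KO, *Fgfr1* was higher in myCAF-like than in iCAF-like cells by 0.64 ± 0.16 (adjusted p = 0.000387) and lower in PVL-like cells, at 85.8 and 91.2, than in iCAF-like cells (-1.75 ± 0.28, adjusted p = 1.07e-08) and myCAF-like cells (-2.37 ± 0.28, adjusted p = 6.69e-11). Of 2 FGF genes tested between the PVL-like and iCAF-like classes both differed, against 25.3% of all genes (12.4% higher and 12.9% lower). Of 4 tested against the myCAF-like class 2 differed, against 19.7% (8.89% higher and 10.8% lower). In both tests *Fgf1* passed the low-count filter only through its PVL-like sums, so these counts say little about the FGF genes as a list. Under DESeq2 the myCAF-like to iCAF-like difference of *Fgfr1* did not pass (0.64, adjusted p = 0.109), nor did it under the gate (0.35, adjusted p = 0.105). By clusters the order in LATS1/2-KO was thus myCAF-like, iCAF-like, basal, then PVL-like and luminal ER- cells, which overlapped, and luminal ER+ cells. Under the gate basal cells, at 87.5 and 98.9, lay below both PVL-like (123 and 139) and luminal ER- cells (108 and 104). Of the 670 LATS1/2-KO cells gated PVL-like, only 109 came from the PVL-like cluster. Lymphocytes held 9.63 to 34.3, or 0 to 18.4 once free RNA was subtracted.

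In the epithelium *Fgfr1* moved in opposite directions in luminal and basal clusters. Luminal ER- cells held 160.4 and 203 in CTL and 84.8 and 86.5 in LATS1/2-KO. Luminal ER+ cells held 103 and 117 in CTL and 67.3 and 76.9 in LATS1/2-KO, and basal cells 129 and 155 in CTL and 224 and 237 in LATS1/2-KO. The groups did not overlap in any of the 3 classes, with LATS1/2-KO lower in both luminal classes and higher in basal cells.

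The falls of *Fgfr1* in luminal ER- cells (-1.42 ± 0.12 on the log2 scale, edgeR adjusted p = 9.12e-05) and luminal ER+ cells (-0.63 ± 0.11, adjusted p = 0.0109) passed, as did the rise in basal clusters (0.58 ± 0.16, adjusted p = 0.0112), which turned to -0.79 under the gate (adjusted p = 0.0011). The luminal ER- change minus the basal one was -2.14 ± 0.17 (interaction adjusted p = 3.46e-10), and minus the luminal ER+ one -0.83 ± 0.16 (adjusted p = 0.000225). Neither passed under the gate (-0.32, adjusted p = 0.261, and -0.52, adjusted p = 0.0737). Without CTL replicate 2 the second did not pass (adjusted p = 0.0951). The basal call did not hold under DESeq2 (adjusted p = 0.0624) or without CTL replicate 1 (adjusted p = 0.081).

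*Fgfr2*, the receptor of FGF7 and FGF10 in epithelium, was above all a luminal ER+ gene. Luminal ER+ cells held 191 and 186 in CTL and 95.01 and 98.9 in LATS1/2-KO. Both LATS1/2-KO libraries were about level with each other and well below both CTL libraries. *Fgfr2* fell there by 0.97 ± 0.09 on the log2 scale (edgeR adjusted p = 0.0015). The share of luminal ER+ cells with a UMI went from 81.6% and 91.0% in CTL to 51.0% and 58.3% in LATS1/2-KO, and from 33.3% and 31.5% to 17.6% and 20.8% once each cell was thinned to 2000 UMIs, which left out 13 to 60 shallower CTL cells and 0 to 14 shallower LATS1/2-KO cells a library. Lymphocytes held a UMI in 0 to 2.44% of cells.

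Luminal ER- cells held little *Fgfr2*, at 5.26 and 5.36 in CTL and 10.997 and 15.6 in LATS1/2-KO. Both LATS1/2-KO libraries lay above both CTL libraries. *Fgfr2* rose by 0.99 ± 0.19 (edgeR adjusted p = 0.0034), a call lost under the gate (0.16, adjusted p = 0.49). With free RNA subtracted the levels were 2.08 and 2.71 in CTL and 9.54 and 15.1 in LATS1/2-KO. The LATS1/2-KO cluster led by *Wfdc3*, at 5.39 and 4.27, lay in the range of the CTL clusters led by *Cck* and *Ltf* (4.12 to 5.95), and the one led by *Ube2c*, at 13.45 and 23.3, lay above it. The changes in the 2 luminal classes differed by 1.88 ± 0.22 (interaction adjusted p = 2.28e-07). Averaged over the conditions, *Fgfr2* was higher in luminal ER+ than in luminal ER- cells by 3.94 ± 0.11 (adjusted p = 1.47e-21), a comparison in which 4 of 7 FGF genes and 53.6% of all genes differed (25.3% higher and 28.3% lower).

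Basal cells held *Fgfr2* at 56.4 and 91.6 in CTL and 69.4 and 66.9 in LATS1/2-KO. The groups overlapped, and the change of -0.23 ± 0.20 did not pass (adjusted p = 0.42). Basal cells stood above luminal ER- cells by 3.0 ± 0.16 (adjusted p = 6.31e-15), where 5 of 7 FGF genes and 41.5% of all genes differed (18.4% higher and 23.1% lower), all 5 of them higher in basal cells. Under the gate *Fgfr1* (-0.34, adjusted p = 0.0084) and *Fgfr3* (-0.09, adjusted p = 0.791) were not. *Fgf2*, 1 of the 5, passed the low-count filter through fibroblast and LATS1/2-KO basal sums, not through luminal ER- sums (0.331 to 0.923 CPM). The 2 LATS1/2-KO clusters without a lineage held *Fgfr2* at 61.6 and 66.0 (led by *Ptgs2*) and 61.2 and 68.4 (led by *Crct1*), in the range of basal cells. Among fibroblasts, myCAF-like cells of LATS1/2-KO, at 20.8 and 22.0, lay above iCAF-like cells, at 6.30 and 5.87 (1.87 ± 0.41, adjusted p = 5.36e-05), a call lost under DESeq2 (adjusted p = 0.173). *Fgfr2* passed the low-count filter there only through myCAF-like sums, so the direction was set in advance.

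*Fgfr3* was found in epithelium and in endothelium and was not seen in lymphocytes. In basal cells it stood at 20.6 and 19.2 in CTL and 44.7 and 43.4 in LATS1/2-KO, and in luminal ER+ cells at 4.30 and 10.4 and at 20.7 and 25.2. In both classes the LATS1/2-KO libraries lay above both CTL libraries. *Fgfr3* rose in basal clusters by 1.02 ± 0.27 (edgeR adjusted p = 0.0082) and in luminal ER+ cells by 1.61 ± 0.42 (adjusted p = 0.033). The basal change turned to a fall of 1.14 under the gate (adjusted p = 0.0155), and its call was lost under DESeq2 (adjusted p = 0.109). The luminal ER+ call was lost under the gate (adjusted p = 0.0564) and without either LATS1/2-KO library (adjusted p = 0.134 and 0.12).

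In luminal ER- cells *Fgfr3* stood at 7.21 and 12.9 in CTL and 9.40 and 9.35 in LATS1/2-KO, with both LATS1/2-KO libraries between the CTL libraries (-0.43 ± 0.26, adjusted p = 0.18). The LATS1/2-KO clusters of this class lay on either side, at 23.5 and 18.8 in the cluster led by *Wfdc3* and 3.26 and 2.90 in that led by *Ube2c*. Its change differed from that in luminal ER+ cells by -2.14 ± 0.30 (interaction adjusted p = 7.44e-06) and from that in basal clusters by -1.58 ± 0.37 (adjusted p = 0.0028), which turned to 1.42 under the gate (adjusted p = 0.0138).

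Endothelial cells held *Fgfr3* at 36.9 and 70.0 in CTL, from 9 and 15 UMIs, and 22.1 and 26.1 in LATS1/2-KO. They held *Fgfr1* at 53.3 and 107 in CTL and 42.7 and 45.9 in LATS1/2-KO. For both receptors the LATS1/2-KO libraries lay below both CTL libraries, and neither passed the test (*Fgfr3* -1.08 ± 0.41, adjusted p = 0.135, and *Fgfr1* -0.80 ± 0.35, adjusted p = 0.206). The count was thus 0 of 2 under edgeR and under DESeq2, where 7.17% of all genes passed under edgeR (3.28% higher and 3.89% lower), with both under an unadjusted p of 0.05 (0.0187 and 0.0384). Without CTL replicate 1 both passed (adjusted p = 0.0327 and 0.0306).

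**Figure D3:**
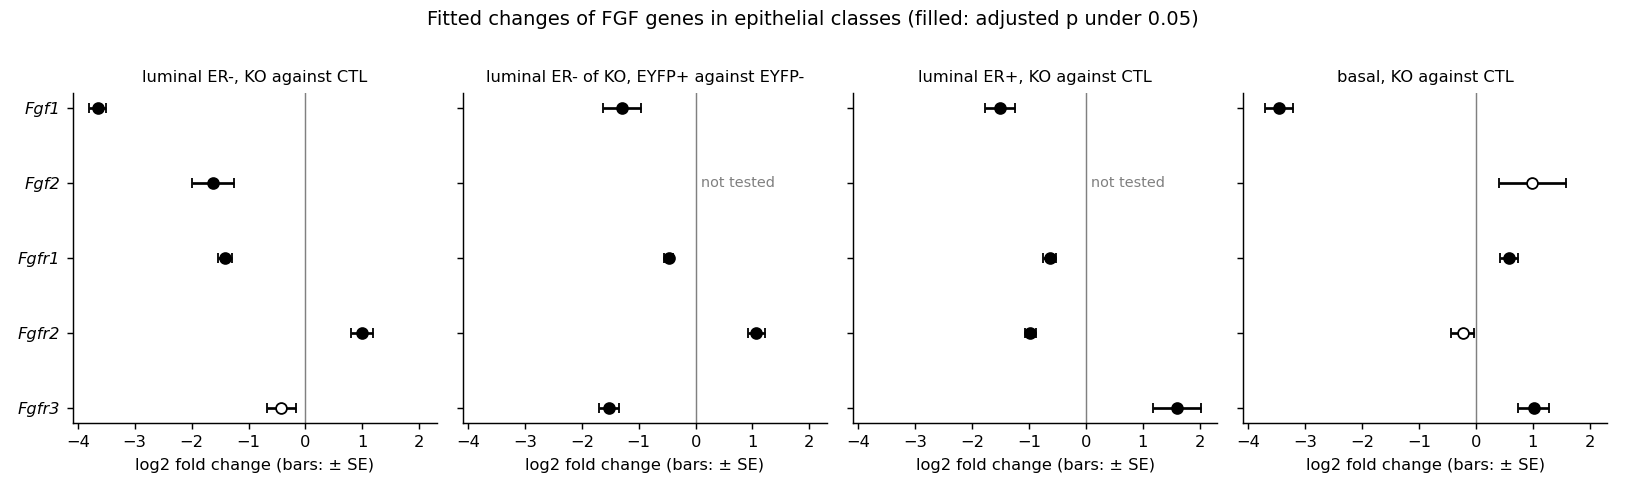
Fitted log2 fold changes (x axis) of the FGF genes (y axis) in 4 comparisons of epithelial cells, with bars of ± SE and filled points where the adjusted p of edgeR is under 0.05. *Fgf1* is below 0 in all 4 panels, *Fgfr1* is below 0 in the luminal panels and above 0 in basal clusters (0.58), and *Fgfr2* is above 0 in luminal ER- cells (0.99) and below 0 in luminal ER+ cells (-0.97).

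Counted by class, 4 of the 5 FGF genes tested in luminal ER- cells passed the test between LATS1/2-KO and CTL, 1 higher and 3 lower. Of all genes tested in that class 64.8% passed (33.6% higher and 31.2% lower), so 4 of 5 says little about these genes as a list. In luminal ER+ cells 4 of 4 passed, 1 higher and 3 lower, against 28.6% of all genes (14.9% higher and 13.8% lower). In basal cells 3 of 5 passed, 2 higher and 1 lower, against 32.5% (16.1% higher and 16.4% lower). The LATS1/2-KO effect differed between luminal ER- and luminal ER+ cells for 4 of 7 FGF genes, against 25.5% of all genes (11.5% higher and 14% lower), and between luminal ER- and basal cells for 4 of 7, against 19.3% (7.59% higher and 11.7% lower). With 2 mice a group, an exact permutation test over mice could not give a p under 0.333 for any single level, and the calls rest on the spread that edgeR shares between genes.

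The reporter split the luminal ER- cells of each LATS1/2-KO mouse into *EYFP*+ cells, with at least 1 *EYFP* UMI, and *EYFP*- cells, some of which may have recombined unseen. *EYFP*+ cells are read as those in which Cre had acted. In the CTL mice, which list no Cre, 8 and 8 luminal ER- cells also held an *EYFP* UMI. A single UMI thus does not establish Cre action in a cell. *Fgf1* stood at 1.28 and 1.17 in *EYFP*+ against 2.81 and 3.11 in *EYFP*- cells, and *Fgfr1* at 71.0 and 68.2 against 91.5 and 99.1. *Fgfr2* stood at 14.8 and 24.5 against 9.17 and 9.41, and *Fgfr3* at 4.62 and 4.14 against 11.7 and 13.0. In both mice *EYFP*+ cells were lower in *Fgf1*, *Fgfr1* and *Fgfr3* and higher in *Fgfr2*, with no overlap.

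All 4 differences passed within mice (edgeR with the mouse as block), against 39.9% of all genes (19.4% higher and 20.5% lower). They were -1.30 ± 0.33 for *Fgf1* (adjusted p = 0.0049), -0.47 ± 0.08 for *Fgfr1* (adjusted p = 9.7e-05), 1.07 ± 0.15 for *Fgfr2* (adjusted p = 1.96e-05) and -1.53 ± 0.18 for *Fgfr3* (adjusted p = 2.62e-06). The *Fgf1* difference rests on 10 and 13 UMIs in *EYFP*+ cells and was lost under DESeq2 (adjusted p = 0.207). *EYFP*+ cells were deeper, with medians of 14403 and 17100.5 UMIs against 7836 and 7823.5. The comparison was also fitted with each cell thinned to 2000 UMIs and shallower cells left out. No direction changed there among the FGF genes fitted. *EYFP*- cells of LATS1/2-KO, at 2.81 and 3.11 for *Fgf1*, still lay below the luminal ER- cells of CTL at 21.4 and 24.9. The LATS1/2-KO luminal ER- cluster led by *Ube2c* (median 15221.5 UMIs a cell) differed from that led by *Wfdc3* (6446) in the same 4 directions. How far the reporter split follows these clusters was not tested, so the 2 contrasts cannot be told apart here.

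**Figure D4:**
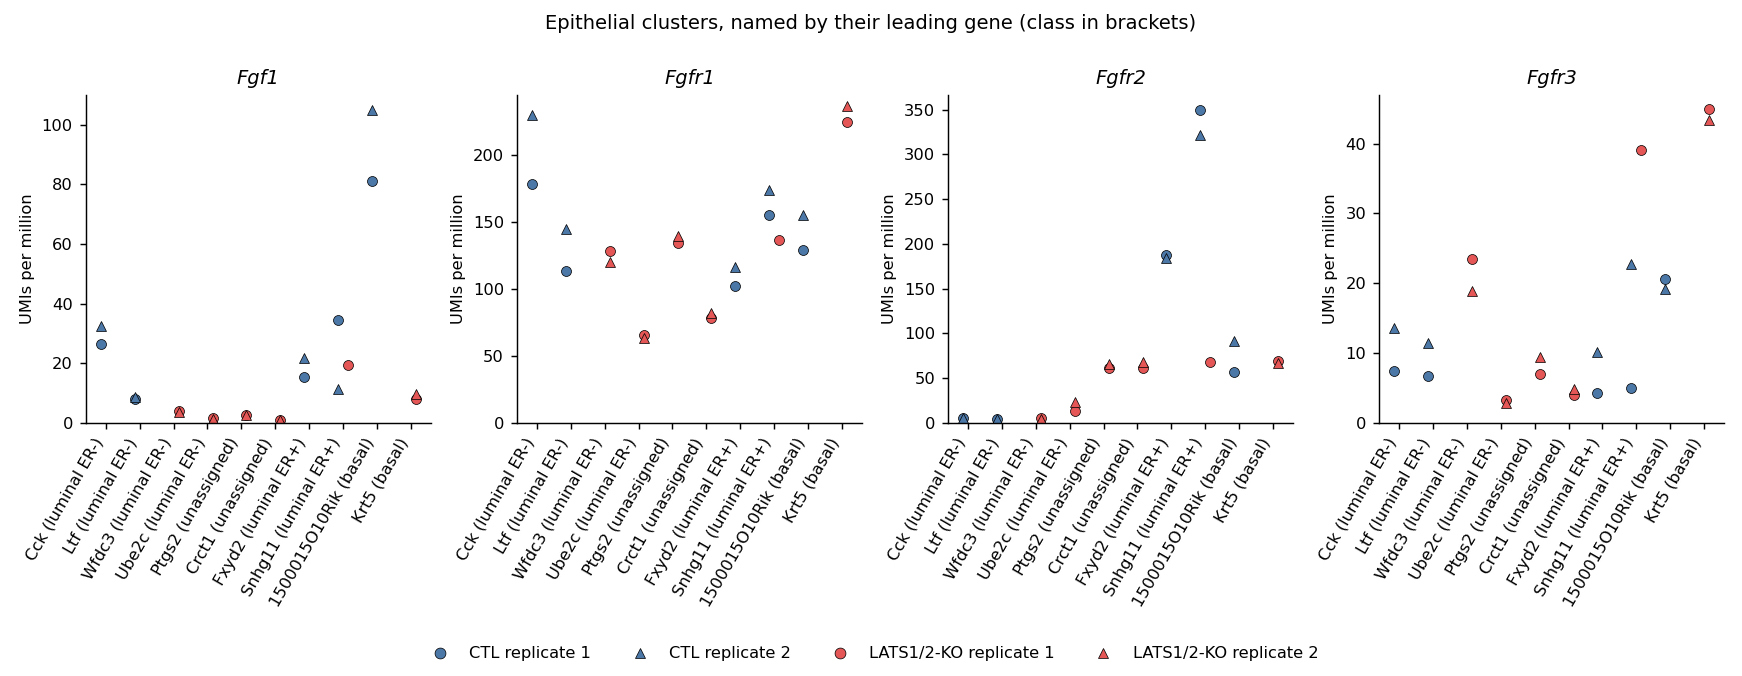
Levels of *Fgf1*, *Fgfr1*, *Fgfr2* and *Fgfr3* in CPM (y axis) in 10 epithelial clusters, named by their leading gene with the class in brackets (x axis), 1 point for each library of at least 20 cells, colours for the groups and shapes for the replicates. *Fgfr1* is lower in the LATS1/2-KO luminal cluster led by *Ube2c* (65.6 and 63.5) than in that led by *Wfdc3* (129 and 120.2), and *Fgfr2* in the clusters without a lineage (61.2 to 68.4) lies in the range of basal cells.

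Several measured properties of the cells moved with these results. The 13 basal markers summed to 51.9 to 61.3 CPM in luminal ER- cells of CTL and to 1452 to 1745 in those of LATS1/2-KO, none of the 13 at 0, and within LATS1/2-KO to 2168 to 2527 in *EYFP*+ and 957 to 1365 in *EYFP*- cells. The 9 immediate-early and heat-shock genes that tissue dissociation is known to raise, among them the FGF target *Egr1*, summed to 14870 and 16951 in luminal ER- cells of CTL and 5435 and 6753 of LATS1/2-KO. In basal cells that sum was 15614 and 14672 against 9521 and 10559, and in iCAF-like cells 17681 and 17044 against 15004 and 17041. The part of either in the changes of the FGF genes was not tested. Free RNA made up an estimated 2.91 to 8.56% of the UMIs of luminal classes, 14.1 to 21.1% of basal and 10.96 to 17.5% of iCAF-like cells.

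Which cells count as basal decided the direction of 2 receptors. When each cell was instead gated into the class whose summed markers stood highest relative to their mean over all kept cells, 1323 LATS1/2-KO cells of the luminal ER- clusters and 512 of the clusters without a lineage became basal, against 10 CTL luminal ER- cells. In basal cells so gated *Fgfr1* stood at 138 and 162 in CTL and 87.5 and 98.9 in LATS1/2-KO, and *Fgfr3* at 17.4 and 19.1 against 7.90 and 9.89. Both were now lower in LATS1/2-KO, without overlap (*Fgfr1* -0.79, adjusted p = 0.0011, and *Fgfr3* -1.14, adjusted p = 0.0155), where the basal clusters were higher. *Fgfr2* in gated basal cells fell by 1.19 (adjusted p = 0.0021), and its rise in luminal ER- cells shrank to 0.16 and did not pass (adjusted p = 0.49). *Fgf1* was lower in LATS1/2-KO either way, at 2.49 and 2.94 against 82.1 and 112 in gated basal cells.

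**Figure D5:**
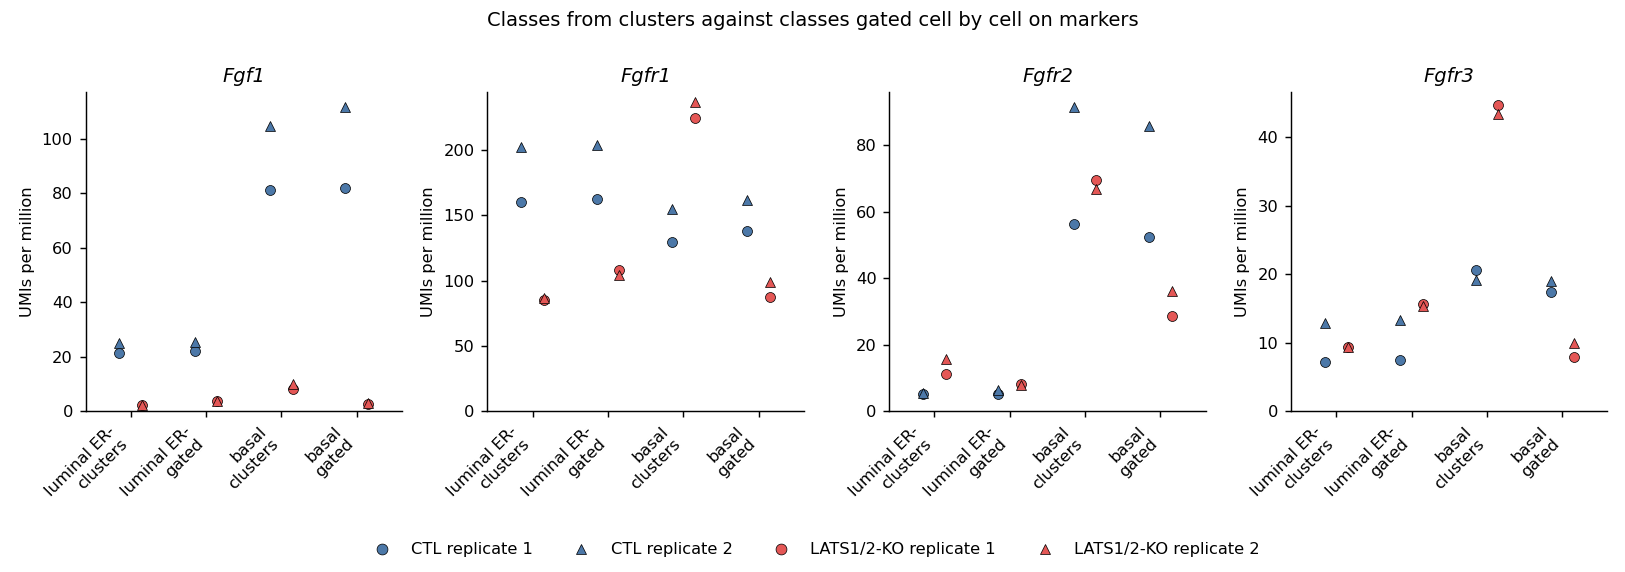
Levels of *Fgf1*, *Fgfr1*, *Fgfr2* and *Fgfr3* in CPM (y axis) in luminal ER- and basal cells, with the class taken from clusters or from a gate on each cell's markers (x axis), 1 point a library, colours for the groups and shapes for the replicates. *Fgf1* is lower in LATS1/2-KO in both columns of each class, whereas *Fgfr1* in basal cells is higher in LATS1/2-KO by clusters (224 and 237) and lower by the gate (87.5 and 98.9).

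Set side by side, source and receiving cells were arranged as follows. The FGFR2 ligands *Fgf7* and *Fgf10* were in iCAF-like fibroblasts in both groups, and *Fgfr2* was in luminal ER+ and basal cells in both groups and also in the LATS1/2-KO clusters without a lineage. *Fgf1* was in basal and luminal cells of CTL and in PVL-like cells of both groups, and *Fgf2* was highest in adipocytes and myCAF-like cells, with basal cells of LATS1/2-KO (9.55 and 9.14) close to iCAF-like cells (9.44 and 10.97). *Fgfr1* RNA was in all these cells. The levels are of RNA and carry no measure of protein, secretion or receptor activity.

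Beyond the 7 genes, 93 other genes of the pathway were read from a list of ligands, co-receptors, heparan sulfate enzymes, transducers, feedback inhibitors and transcription targets. In luminal ER- cells 69 were tested, of which 32 rose and 18 fell in LATS1/2-KO, with a median log2 fold change of 0.21 against 0.01 over all genes, of which 64.8% passed (33.6% higher and 31.2% lower). Co-receptors and carriers rose most often (10 higher and 3 lower of 15). *Fgfbp1*, a carrier that releases FGFs from heparan sulfate, went from 0.307 to 0.831 CPM in CTL to 52.4 to 68.0 in LATS1/2-KO (6.44 ± 0.30 on the log2 scale, edgeR adjusted p = 8e-06). *Nrp1* rose by 3.82 ± 0.67 (adjusted p = 0.0022).

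The feedback inhibitors and targets did not move one way in luminal ER- cells. Of 12 inhibitors 7 rose and 4 fell, and of 10 targets 3 rose and 6 fell. The inhibitors are those of the list, which puts *Lgals3* and *Rasa1* beside the Sprouty and DUSP genes. *Etv4* rose from 1.11 to 1.34 in CTL to 22.8 to 28.0 in LATS1/2-KO (4.04 ± 0.19, adjusted p = 8.75e-06), *Etv5* by 1.74 ± 0.15 (adjusted p = 9.36e-05) and *Spry1* by 2.59 ± 0.14 (adjusted p = 1.33e-05). *Dusp6* fell by 1.24 ± 0.10 (adjusted p = 7.44e-05), *Spry2* by 0.96 ± 0.14 (adjusted p = 0.000817), *Dusp5*, an ERK phosphatase, by 2.45 ± 0.11 (adjusted p = 7.4e-06) and the immediate-early gene *Egr1* by 2.21 ± 0.19 (adjusted p = 8.2e-05). Both ETV factors and *Spry1* thus rose while both phosphatases and *Spry2* fell. *Egr1*, *Fos* and *Ier2*, all counted among the 10 targets, are also dissociation genes. *Spry4* (-0.54, adjusted p = 0.194) did not pass.

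Between *EYFP*+ and *EYFP*- luminal ER- cells, 17 of 67 pathway genes tested were higher and 26 lower in *EYFP*+ cells, against 39.9% of all genes (19.4% higher and 20.5% lower). Feedback inhibitors were mostly lower (1 higher and 9 lower of 12), *Dusp6* (-1.28 ± 0.07 on the log2 scale, adjusted p = 3.61e-10), *Spry2* (-0.77 ± 0.10, adjusted p = 5.83e-06) and *Spry4* (-0.87 ± 0.22, adjusted p = 0.0036) among them. *Spry1*, at 0.21 ± 0.11, did not pass (adjusted p = 0.133). *Fgfbp1* was higher by 1.23 ± 0.12 (adjusted p = 1.93e-07) and *Etv4* by 0.34 ± 0.10 (adjusted p = 0.012). Transcription targets were mostly lower too (2 higher, *Etv4* among them, and 7 lower of 10).

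In basal clusters 21 of 59 rose and 10 fell, against 32.5% of all genes (16.1% higher and 16.4% lower). Of the 10 transcription targets 4 rose and 5 fell. *Dusp6* rose by 1.19 ± 0.18 (adjusted p = 0.000118), *Spry2* by 0.65 ± 0.20 (adjusted p = 0.0213) and *Etv4* by 1.31 ± 0.30 (adjusted p = 0.0028), whereas *Spry1* fell by 0.98 ± 0.30 (adjusted p = 0.0205). The changes of *Dusp6* and *Spry1* differed between luminal ER- and basal clusters (-2.57 ± 0.20, interaction adjusted p = 1.72e-10, and 3.42 ± 0.50, adjusted p = 1.15e-05). The pathway genes were read in classes from clusters only. They were not read under the gate, which moved many LATS1/2-KO luminal ER- cells into the basal class. *Sdc1*, a heparan sulfate co-receptor of the cell surface, rose by 2.64 ± 0.21 in basal cells (adjusted p = 9.2e-08) and by 2.97 ± 0.12 in luminal ER+ cells (adjusted p = 0.000199). In luminal ER+ cells 21 of 69 rose and 10 fell, against 28.6% (14.9% higher and 13.8% lower), with *Spry1* (1.82 ± 0.16, adjusted p = 0.0013) and *Etv4* (1.65 ± 0.20, adjusted p = 0.0032) among the higher and *Dusp5* (-1.56 ± 0.19, adjusted p = 0.0031) among the lower. Of the 10 transcription targets 2 rose and 4 fell in that class.

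In iCAF-like cells 3 of 42 rose and 3 fell, against 13.5% of all genes (5.77% higher and 7.77% lower). The proteoglycan *Gpc3* went from 317 to 390 in CTL to 33.0 to 42.9 in LATS1/2-KO (-3.04 ± 0.26, adjusted p = 5.56e-05), *Spry1* fell by 2.03 ± 0.35 (adjusted p = 0.0031) and *Sdc2* by 1.35 ± 0.23 (adjusted p = 0.0034). *Lgals3*, which encodes galectin-3, rose by 2.08 ± 0.32 (adjusted p = 0.0017). Within LATS1/2-KO, 25 of 66 were higher in myCAF-like than in iCAF-like cells and 14 lower, against 28.9% (15.2% higher and 13.7% lower). Only FGF genes were left out of the clustering. The other pathway genes could help make the clusters compared, so their p-values here are not independent of the classes. The heparan sulfate 6-O-sulfotransferase *Hs6st2* (4.96 ± 0.52, adjusted p = 7.61e-20), the glypican *Gpc1* (3.13 ± 0.20, adjusted p = 1.17e-52) and *Etv4* (2.37 ± 0.34, adjusted p = 6.2e-11) were among the higher, and the ligand *Fgf18* (-2.09 ± 0.51, adjusted p = 0.000263) was lower, as *Fgf7* and *Fgf10* were. Of the 10 transcription targets tested between these fibroblasts, *Etv4* alone was higher and 7 were lower. In endothelial cells 2 of 49 rose and 6 fell, against 7.17% (3.28% higher and 3.89% lower).

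The genes whose levels followed each FGF gene most closely were taken over 36 class sums of at least 20 cells, among 10809 genes of at least 5 CPM on average. The class sums share libraries and class composition, so the Pearson correlations of log2 levels are descriptions. *Fgf7* followed *Inmt* (0.96), *Gabra3* (0.96) and *Abca8a* (0.95), and *Fgf10* followed *Osr2* (0.91), *Sfrp4* (0.88) and *Clec3b* (0.87), the last one of the iCAF markers. *Fgf2* was nearest *Dram1* (0.87), *Pcsk5* (0.87) and *Bnc2* (0.85), and *Fgf1* had no close follower (*Mnd1*, *Npw* and *Macrod1*, 0.72 to 0.73). *Fgfr1* was nearest *Evc2* (0.85), *Arhgap42* (0.84) and *Igsf3* (0.82), *Fgfr2* nearest *Mboat2* (0.79), *Prdx2* and *Samd5* (both 0.77), and *Fgfr3* nearest *Magi1* (0.86), *Tanc2* (0.83) and *Adgrg1* (0.83).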

How the data were processed

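Mammary cells of 4 mice were profiled as 3' droplet libraries. The authors deposited raw UMI counts per gene and cell, aligned to mm10 with Cell Ranger, given as 3.1.0 in the submitters' processing notes and 6.1.2 in the matrix headers. The study's Seurat annotation was not used here, so cell names are rebuilt. Cells were normalized with sctransform 0.4.2, clustered in Seurat 5.3.0 on 2991 of 3000 variable genes (FGF genes removed, 20 components, Louvain resolution 0.4, stroma 0.8) and named from marker lists, with naming limits set after marker levels were seen. Scrublet in scanpy 1.11.5 called 0 to 80 cells a library, too few to count as working, so doublets stayed in and removing the highest scores was an alternative. Counts were summed per class and library where at least 20 cells were held.

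Sums were tested with edgeR 4.0.16 (quasi-likelihood, TMM, filterByExpr, R 4.3.3), with Benjamini-Hochberg adjustment over all genes and a threshold of 0.05. DESeq2 1.42.0 was an alternative. The replicate is the mouse. The tests were run on simulated counts as well. Levels are CPM of the class sum. The named genes were the 7 FGF genes, in each comparison the 3 highest and 3 lowest called genes of the pathway list, a few fixed pathway genes, and for each FGF gene the 3 genes most like it. The interaction values of *Dusp6* and *Spry1* come from the fixed genes. The FGF genes and all lists were chosen with earlier results of these data known. PVL-like cells were not tested between conditions because CTL held 17 and 8. One cluster's leading gene is not reported here, and that cluster is not drawn in the plot of epithelial clusters.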

Additional observations from a re-analysis of the deposited data

Results flagged for a closer look

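In 8 cases the LATS1/2-KO effect on an FGF gene differed between epithelial classes by an interaction test (edgeR, Benjamini-Hochberg adjustment over all genes). Between luminal ER- and luminal ER+ cells 4 of 7 FGF genes differed, against 25.5% of all genes, and between luminal ER- and basal cells 4 of 7, against 19.3%.

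The effect in luminal ER- cells minus that in luminal ER+ cells, on the log2 scale, was -2.18 ± 0.38 for *Fgf1* (adjusted p = 8.93e-05), -0.83 ± 0.16 for *Fgfr1* (adjusted p = 0.000225), 1.88 ± 0.22 for *Fgfr2* (adjusted p = 2.28e-07) and -2.14 ± 0.30 for *Fgfr3* (adjusted p = 7.44e-06). Without LATS1/2-KO replicate 1 the *Fgf1* difference did not pass (adjusted p = 0.0529), and without CTL replicate 2 the *Fgfr1* difference did not (adjusted p = 0.0951).

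The effect in luminal ER- cells minus that in basal cells was -2.75 ± 0.76 for *Fgf2* (adjusted p = 0.0119), -2.14 ± 0.17 for *Fgfr1* (adjusted p = 3.46e-10), 1.07 ± 0.28 for *Fgfr2* (adjusted p = 0.0075) and -1.58 ± 0.37 for *Fgfr3* (adjusted p = 0.0028). The *Fgf2* difference rests on 5 and 1 UMIs in CTL basal cells. Without CTL replicate 2, *Fgf2* (adjusted p = 0.147), *Fgfr2* (0.246) and *Fgfr3* (0.162) did not pass, and without LATS1/2-KO replicate 2, *Fgf2* (0.131) and *Fgfr2* (0.0721) did not. Without LATS1/2-KO replicate 1, *Fgf2* did not (0.0863). When cells were classed one by one by their markers, the luminal ER- minus basal difference turned for *Fgf2* (0.21, adjusted p = 0.922) and *Fgfr3* (1.42, adjusted p = 0.0138), and that of *Fgfr1* did not pass (-0.32, adjusted p = 0.261), nor did the luminal ER- minus luminal ER+ difference of *Fgfr1* (-0.52, adjusted p = 0.0737). The 2 sets of differences share the luminal ER- sums.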

How the results depend on the processing

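Of the log2 fold changes of single FGF genes recomputed under the alternatives, 819 kept direction and side of the threshold, 55 lost the call, 10 gained it and 18 changed sign. The per-cell marker gate moved most. Under it 2 FGF genes passed in luminal ER- cells, 1 in fibroblasts and 6 for PVL-like against iCAF-like cells, and these changed sign: *Fgfr3* in luminal ER- cells (0.26), *Fgf2* (-1.05), *Fgfr3* (-1.14) and *Fgfr1* (-0.79) in basal cells, *Fgfr2* in fibroblasts (-0.49) and PVL-like against myCAF-like cells (0.56), *Fgfr3* (-0.0861) and *Fgfr1* (-0.34) in basal against luminal ER- cells, *Fgfr3* in luminal ER+ against luminal ER- cells (-0.20), and the luminal ER- minus basal effects of *Fgf2* (0.21), *Fgfr3* (1.42) and *Fgf1* (2.24). Other sign changes were *Fgfr3* in luminal ER- cells (0.0394, range -0.80 to 0.0394) and *Fgfr2* in basal cells (0.14) without CTL replicate 2, *Fgfr2* in basal cells with free RNA subtracted (0.0241), *Fgf10* in fibroblasts without a low-count filter (0.0153) and without CTL replicate 1 (0.63, range over left-out libraries -0.35 to 0.63), and *Fgf7* in basal against luminal ER- cells without LATS1/2-KO replicate 2 (-1.14, range -1.14 to 1.73). Under DESeq2 the count was 1 in basal cells, 1 in fibroblasts and 2 between myCAF-like and iCAF-like cells. In fibroblasts it was 1 under the mitochondrial limit of 10%, log-normalized counts, removal of the highest Scrublet scores, thinned class sums and free RNA subtraction. In iCAF-like cells it was 0 under Scrublet removal and under thinned sums (edgeR). Thinned sums gave 1 in each of the 3 comparisons among stromal classes, and no low-count filter gave 4 for PVL-like against iCAF-like cells. The cause was not tested.

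Leaving out 1 library gave 1 to 4 FGF genes in luminal ER+ cells (1 without LATS1/2-KO replicate 1), 2 to 3 in basal cells, 0 to 1 in fibroblasts, 0 to 1 in iCAF-like cells, 0 to 2 in endothelial cells (2 without CTL replicate 1) and 2 at the lowest for luminal ER+ against luminal ER- cells. The luminal ER- minus basal effects fell to 1 without CTL replicate 2 and 2 without LATS1/2-KO replicate 2.

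With the replicate number as a replicate block, the FGF counts were 4, 4, 3, 2, 1 and 0 in luminal ER-, luminal ER+, basal, fibroblast, iCAF-like and endothelial cells, the same as without it, while all genes called in fibroblasts went from 516 to 783. All genes called also rose in basal (3076 to 3424), iCAF-like (791 to 826) and endothelial cells (542 to 666). They fell in luminal ER- (8802 to 8764) and luminal ER+ cells (3583 to 3558). Same-numbered samples did not deviate together over all genes (correlations -0.03 to 0.05). That correlation cannot exclude a shared batch that moves some genes. Without the block, 2 FGF genes passed between *EYFP*+ and *EYFP*- cells of the same mice. Depth limits *Fgf7*, *Fgf10* and *Fgf2* most.

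Another scaling moved the median change of all genes by over 0.1 in fibroblasts against epithelium (-0.14 by TMM, 0.12 by DESeq2), basal against luminal ER- cells (-0.10 and 0.08) and the luminal ER- minus basal effects (-0.13 and 0.17).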
